A study of Mus musculus with 4 samples.

Results

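Aspscr1, Vcp and 8 further genes for proteins with a UBX domain were followed across all libraries of a mouse liver cancer cell line with and without extra UBXN9. The 10 genes were taken by symbol from the 55487 annotated identifiers of the count table: Aspscr1, which encodes UBXN9, Vcp, Faf1, Faf2, Nsfl1c, Ubxn1, Ubxn4, Ubxn6, Ubxn7 and Ubxn8. All 10 were found and all 10 passed the filter on low counts. The cells were unstimulated LPC-HRas cells, and both groups carry that background. The control group held 2 libraries (control 1 and 2), and the UBXN9-overexpressing group held 2 (UBXN9 1 and 2). The labels do not name the vector, the species of the UBXN9 sequence or the number of clones, nor do they say that the libraries came from separate cultures, so the p-values speak for the spread among the 4 libraries, which may be technical.

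VCP, also called p97, is a hexameric ATPase that pulls ubiquitin-tagged proteins out of membranes and complexes, often on their way to the proteasome. It is directed by cofactors, and the largest family of them shares the UBX domain, a ubiquitin-like fold that docks on the VCP N-terminal domain. UBXN9, also called TUG, is known for holding vesicles with the glucose transporter GLUT4 inside the cell, for taking VCP hexamers apart, and for its fusion with TFE3 in a sarcoma. Each member's position is given below for GRCm38 with GENCODE release M21.

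A level is given as CPM, the gene's counts relative to the library total, scaled with TMM factors that adjust for library composition, and a change is the log2 fold change of UBXN9 over control from edgeR's quasi-likelihood test, with its standard error (SE) and 95% interval. An adjusted p under 0.05, over all 13230 genes tested, counted as a change. Totals ran from 21814969 to 26292686 counts per library. Of the 13230 genes, 5.06% were called higher and 2.38% lower. The smallest two-sided p of an exact permutation test is 0.333 at 2 libraries per group. Gene by gene, the controls differed from each other by a median of 0.199 on the log2 scale and the UBXN9 libraries by 0.313. Among markers of the labelled liver cell type, Alb was at 0 in every library and Hnf4a had 1 count in all, whereas Sox9 stood between 168 and 208 CPM and Spp1, which encodes osteopontin, between 2198 and 2991 CPM. Other biliary and progenitor markers were low: Epcam had 1 to 4 counts, Krt7 had 1 to 3 counts, and Krt8 was below 1 CPM in every library. All 6 lymphoid markers were below 1 CPM in every library, and the pan-leukocyte gene Ptprc had 0, 0, 3 and 1 counts. The summed level of 6 fibroblast and stellate markers was 224 and 206 CPM in the controls against 353 and 424 CPM in the UBXN9 libraries, with Col1a1 and Acta2 called higher (log2 fold changes 2.20 and 1.27). On the same list Pdgfrb (0.38), Col1a2 (-0.76) and Des (-0.47) did not pass, and Lrat had 1 count in all. The 7 biliary and progenitor markers summed to 2662 and 2386 CPM in control against 2941 and 3202 CPM, mostly Spp1, and Krt18 and Krt19 among them were called lower. The sum of 6 myeloid markers was 6.68 and 6.8 CPM against 12.3 and 9.99 CPM, with Lyz2 called higher, and that of 4 endothelial markers was 3.05 and 1.95 CPM against 4.33 and 3.92 CPM. The part of these markers in the results below was not tested. In bulk RNA, more cells of a type and more RNA per cell cannot be told apart. Hras had 59.2 and 77.1 CPM in the controls and 80.0 and 54.5 CPM in the UBXN9 libraries.

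Promoter windows, 250 bases before to 50 bases after an annotated start, are shown for the genes that matter most below. They come from RefSeq (GRCm38.p6), where 9 of the 10 members matched, with 13 windows; Ubxn8 did not match. Vcp is shown as the ATPase itself, Aspscr1 as the overexpressed gene, and Usp25 as the related gene that changed. Capitals mark matches on either strand to 7 motifs, and each window is written 5′ to 3′ on the gene's strand.
Vcp, chr4:43000458-43000757, minus strand: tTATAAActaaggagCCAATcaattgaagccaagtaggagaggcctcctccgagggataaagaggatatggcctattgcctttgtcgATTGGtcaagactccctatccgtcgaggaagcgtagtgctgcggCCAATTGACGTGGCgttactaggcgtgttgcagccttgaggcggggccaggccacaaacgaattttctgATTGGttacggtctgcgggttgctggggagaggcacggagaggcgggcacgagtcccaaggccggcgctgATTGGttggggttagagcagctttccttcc
Aspscr1, chr11:120672723-120673022, plus strand: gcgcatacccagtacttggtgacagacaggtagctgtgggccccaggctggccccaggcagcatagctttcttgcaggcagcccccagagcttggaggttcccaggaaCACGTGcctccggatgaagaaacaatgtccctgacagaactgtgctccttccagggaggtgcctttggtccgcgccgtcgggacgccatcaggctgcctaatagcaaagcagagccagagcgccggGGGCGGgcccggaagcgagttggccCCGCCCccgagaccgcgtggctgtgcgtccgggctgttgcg
Usp25, chr16:77013819-77014118, plus strand: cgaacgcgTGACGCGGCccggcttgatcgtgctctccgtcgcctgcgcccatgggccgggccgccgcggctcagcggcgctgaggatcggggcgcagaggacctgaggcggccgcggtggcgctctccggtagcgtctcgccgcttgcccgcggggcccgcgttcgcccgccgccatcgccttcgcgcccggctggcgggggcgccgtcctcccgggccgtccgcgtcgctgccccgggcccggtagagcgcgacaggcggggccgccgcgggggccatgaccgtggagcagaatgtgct

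The Vcp window held 5 CCAAT boxes (CCAAT), 1 TATA box (TATAAA) at the far upstream end, and 1 antioxidant response core (TGACNNNGC) at position -114, directly after the CCAAT box at -119 (positions of the first base of the match, counted from the annotated start). The antioxidant response core is the motif of NFE2L1 and NFE2L2, and it stood in 12.4% of all 32851 promoter windows. Of the 13 member windows 3 held it, those of Vcp, Faf2 and Ubxn4, as did the window of Usp25. That Usp25 window, set by the RefSeq start, lies wholly inside the gene as GENCODE M21 places it, from 77013706 to 77116780. Aspscr1 has 3 windows, and the one shown is the one at the start of the annotated gene. It held 2 GC boxes (GGGCGG) and 1 E-box (CACGTG), while the second window held 10 GC boxes and 1 CCAAT box and the third held 0 matches. GC boxes were found in 10 of the 13 member windows against 35.7% of all windows, and E-boxes in 4 of the 13 against 7.15%. By gene, 7 of the 9 members had a GC box and 4 of the 9 an E-box. The share of G and C bases ran from 52.0% to 75.3% over the member windows, beside a median of 52.7% over all windows. The part of base composition in these matches was not tested. The core of the interferon-stimulated response element (2 copies of GAAA with 2 bases between them) was in 0 of the 13 member windows and in 3.44% of all windows, and the cyclic AMP response element (TGACGTCA) in 0 of 13 and 1.79%. A match to these letters is a description and does not show binding.

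Aspscr1 (ENSMUSG00000025142, chromosome 11, 120672973 to 120709447, plus strand) was the member with the largest change. Control 1 and 2 held 2414 and 2538 of its counts and UBXN9 1 and 2 held 7867 and 10078, which are 92.1 and 115 CPM against 392 and 380 CPM. The groups are far apart, and the UBXN9 libraries lie closer to each other than the controls do. The mean was 104 ± 16.3 CPM in control and 386 ± 8.22 CPM in UBXN9 cells (SD, n = 2), and the log2 fold change was 1.90 (SE 0.18, 95% interval 1.47 to 2.32, edgeR adjusted p = 0.00144). By p-value it ranked 139th of the 13230 genes. Gm17178, an antisense gene that overlaps it, had at most 1 count in any library.

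Of 18 tested genes of chromosome 11 lying wholly within 100 kb of Aspscr1, 2 were called, both higher. Notum, which encodes a WNT-inactivating lipase, went from 1.76 and 2.04 CPM to 10.2 and 7.84 CPM (log2 fold change 2.25, edgeR adjusted p = 0.00531), and Cbr2, a carbonyl reductase gene, from 1.26 and 2.09 CPM to 11.8 and 8.03 CPM (2.57, edgeR adjusted p = 0.00769). Cenpx, a centromere gene among the 16 not called, had 29.9 and 33.8 CPM in control against 23.4 and 13.6 CPM, and Lrrc45 had 56.0 and 63.7 CPM against 54.8 and 51.8 CPM. Of these 16 genes 9 had a log2 fold change above 0 and 7 below, the highest being Notumos (1.40), Hmga1b (1.12) and Dcxr (1.00). Over the 71 tested genes whose start lies within 2 Mb, the median log2 fold change was -0.016, beside -0.05 for the whole chromosome. Of the 71, 6 were called higher and 3 lower, against 5.06% and 2.38% of all genes tested.

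**Figure D1:**
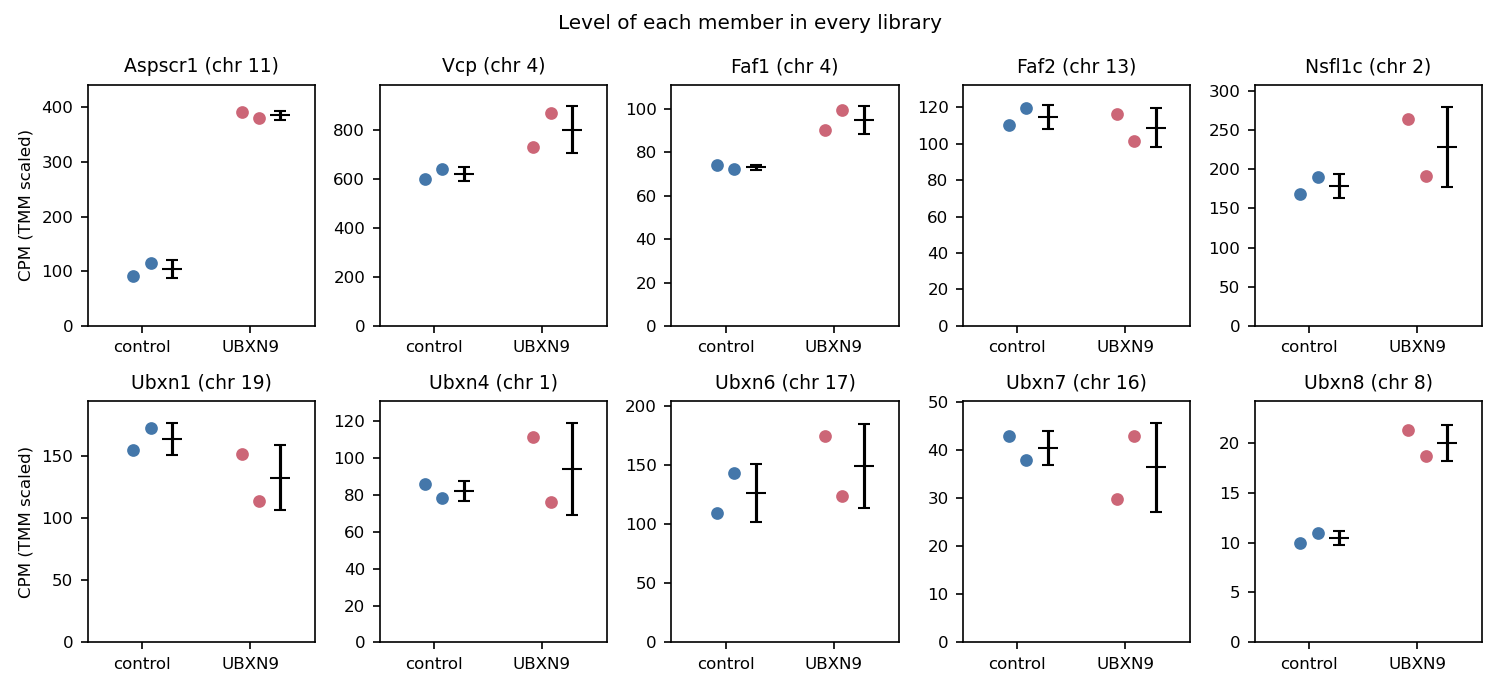
Level of each of the 10 members in CPM (linear axes from 0), with 1 point per library for control (blue) and UBXN9 (red), and the mean with SD of the 2 libraries as a black bar. Aspscr1 and Ubxn8 show widely separated groups, and Faf2, Ubxn4, Ubxn6 and Ubxn7 show overlapping ones.

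Genes whose profile over the 4 libraries was most like that of Aspscr1 were sought by the root mean square difference of log2 CPM, centred on each gene's mean. A prior count of 2 was used for these log2 values, which shrinks differences at low counts. Mmp3, the matrix protease stromelysin, was nearest with a difference of 0.0624 on the log2 scale and levels of 3.47, 4.08, 14.6 and 13.0 CPM. Cd93 (0.073), Gm42031 (0.0806), Gm14137 (0.0844) and Fmo5 (0.0884) followed. In edgeR's fit their log2 fold changes were 2.34, 2.14, 1.98 and 2.36, in that order, beside 1.90 for Aspscr1. All 5 had far lower levels than Aspscr1, the highest being 15.9 CPM for Gm14137, and Fmo5 did not pass the test (edgeR adjusted p = 0.0998).

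Vcp (ENSMUSG00000028452, chromosome 4, 42979963 to 43000507, minus strand), the ATPase that all these cofactors serve, did not pass the test. It had 598 and 640 CPM in the controls and 731 and 867 CPM in the UBXN9 libraries. Both UBXN9 libraries lie above both controls, and UBXN9 2 is the highest. The means were 619 ± 30.1 and 799 ± 96.3 CPM (SD, n = 2), the log2 fold change was 0.37 (SE 0.18, edgeR adjusted p = 0.308), and the 95% interval ran from -0.065 to 0.80, that is from 0.956-fold to 1.74-fold. A rise of Aspscr1 size would lie outside that interval.

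Faf1 (ENSMUSG00000010517, chromosome 4, 109676588 to 109963960, plus strand) encodes a ubiquitin-binding VCP cofactor first found through the death receptor Fas. It had 74.0 and 72.3 CPM in the controls and 90.3 and 99.6 CPM in the UBXN9 libraries. Again the groups do not overlap, and the log2 fold change of 0.38 (SE 0.15, 95% interval 0.02 to 0.74) was close to that of Vcp. It did not pass (unadjusted p = 0.0414, edgeR adjusted p = 0.208).

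Ubxn8 (ENSMUSG00000052906, chromosome 8, 33619586 to 33641967, minus strand), for a membrane protein of the endoplasmic reticulum that tethers VCP there, was the only other member called. Its counts were 261 and 241 in control 1 and 2 and 427 and 496 in UBXN9 1 and 2, or 9.96 and 10.9 CPM against 21.2 and 18.7 CPM. Its groups do not overlap, and its level is the lowest of the 10 members in CPM. The means were 10.4 ± 0.689 and 20.0 ± 1.81 CPM (SD, n = 2), with a log2 fold change of 0.93 (SE 0.21, 95% interval 0.45 to 1.42, a 1.91-fold rise, edgeR adjusted p = 0.041). Among the settings that lost the call were leaving out control 1 (0.86, edgeR adjusted p = 0.32), leaving out control 2 (1.00, edgeR adjusted p = 0.258) and scaling without a composition factor (0.84, edgeR adjusted p = 0.0673). It was kept with DESeq2 and limma-voom. The call was also kept without either UBXN9 library, in fits that called far more genes in all than the main fit did.

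These 3 members lie on chromosomes 4 and 8, whose genes stood higher as a whole. The median log2 fold change was 0.27 over 806 tested genes of chromosome 4 and 0.31 over 732 of chromosome 8, and 77.7% and 80.2% of them were above 0, against a median of -0.037 and 45.6% over the 11692 genes elsewhere. Among the genes elsewhere, the 884 of chromosome 5 had a median of 0.11, with 62.4% above 0. Called higher were 7.69% of the genes of chromosome 4, 8.88% of those of chromosome 8 and 4.64% of the rest. Measured from the median of its chromosome, Vcp stood 0.10 higher, Faf1 0.11 and Ubxn8 0.63 higher on the log2 scale. The part of the chromosome shift in these 3 values was not tested.

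**Figure D2:**
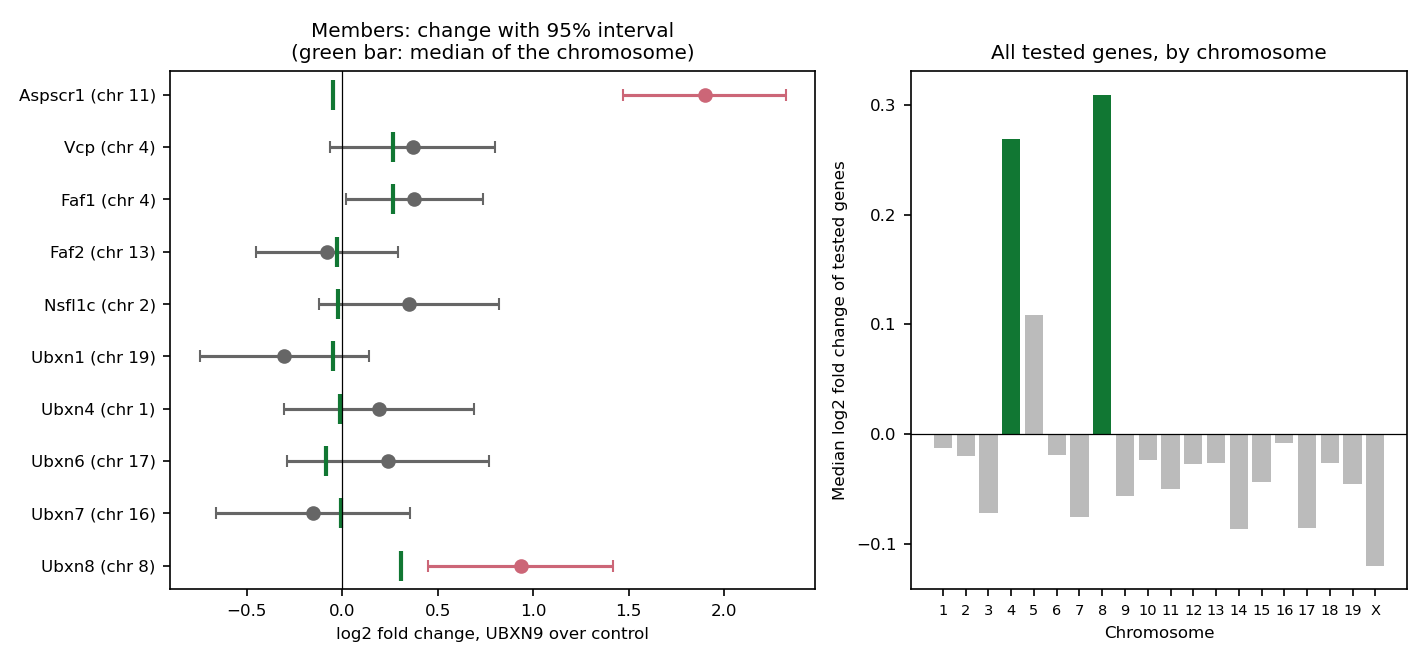
Left: log2 fold change of UBXN9 over control for the 10 members with 95% interval (red where the adjusted p is under 0.05), and the median of the member's chromosome as a green bar. Right: median log2 fold change of all tested genes per chromosome as bars from 0, with chromosomes 4 and 8, at 0.27 and 0.31, in green.

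Closer neighbourhoods gave similar values. Among 45 tested genes that start within 2 Mb of Vcp, the median was 0.25 and 33 were above 0, and among 26 around Faf1 it was 0.38 and 23 were above 0. Called higher were 2 of the 45 and 2 of the 26, against 7.69% of all genes tested on chromosome 4. Vcp lay above 60% of its neighbours and Faf1 above 50% of them. Around Ubxn8 the median of 16 genes was 0.28 and 12 were above 0. Beside 8.88% of all genes tested on chromosome 8, 4 of the 16 were called higher. One of these is Gsr, the glutathione reductase gene, whose start is 10.6 kb from that of Ubxn8, with a log2 fold change of 0.75. The others are Rbpms (1.34), Leprotl1 (0.99) and Nrg1 (1.96). Ubxn8 lay above 81.2% of its neighbours.

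**Figure D3:**
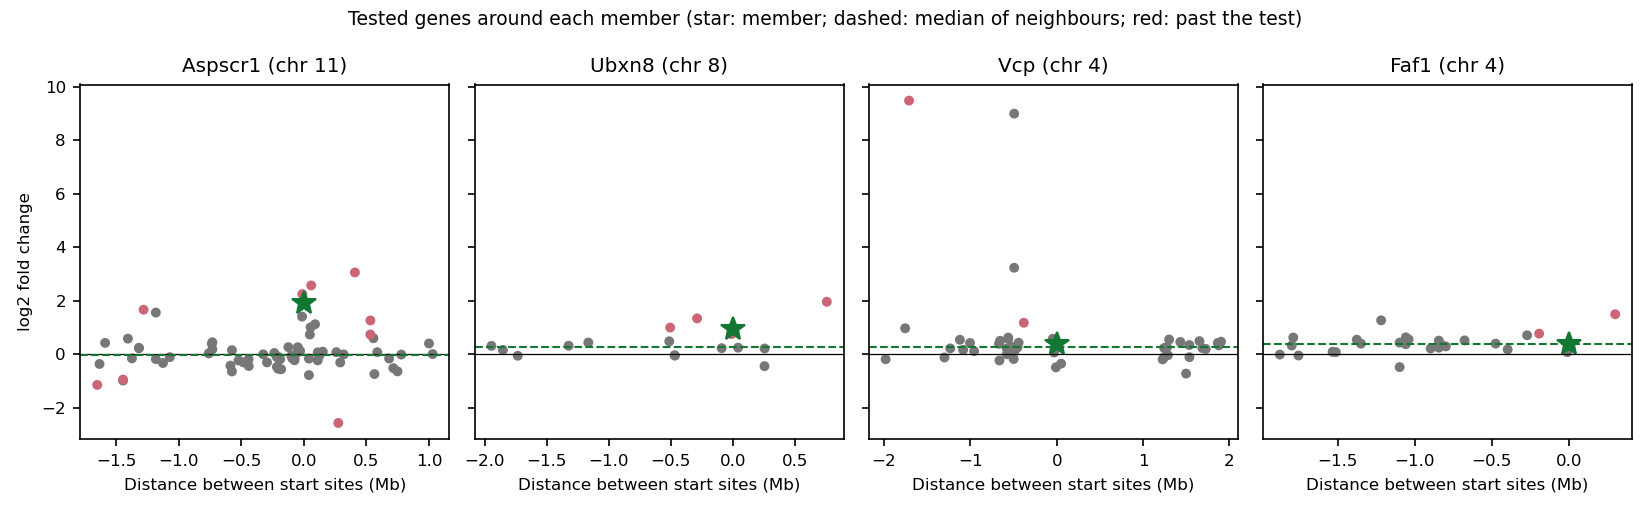
Log2 fold change of tested genes against the distance of their start from that of Aspscr1, Ubxn8, Vcp or Faf1 in Mb, up to 2 Mb to each side, with positive distances downstream. The star is the member, the dashed line the median of its neighbours, and red points passed the test; the star of Aspscr1 stands at 1.90 over neighbours with a median of -0.016, and those of Vcp and Faf1 stand near their neighbours' medians of 0.25 and 0.38.

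The other 6 members, on chromosomes 1, 2, 13, 16, 17 and 19, did not pass. Nsfl1c (ENSMUSG00000027455, chromosome 2, 151494182 to 151511414, plus strand) encodes p47, the cofactor with which VCP rebuilds Golgi membranes after mitosis. It had 168 and 190 CPM in the controls and 264 and 192 CPM in the UBXN9 libraries. The lower UBXN9 library barely exceeds control 2, and the log2 fold change was 0.35 (SE 0.20, 95% interval -0.12 to 0.82, edgeR adjusted p = 0.377). It was 0.56 without UBXN9 2 and 0.10 without UBXN9 1, fits that each leave a single UBXN9 library.

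Ubxn1 (ENSMUSG00000071655, chromosome 19, 8871496 to 8875863, plus strand), whose product binds ubiquitin chains and is known to dampen NF-kB and antiviral signalling, had the most negative value. It stood at 154 and 172 CPM in the controls and 151 and 114 CPM in the UBXN9 libraries. Both UBXN9 libraries are lower, UBXN9 1 by little, and the log2 fold change of -0.30 (SE 0.19, 95% interval -0.75 to 0.14) did not pass (edgeR adjusted p = 0.421). Ubxn6 (ENSMUSG00000019578, chromosome 17, 56067045 to 56075028, minus strand), for the cofactor that works with VCP in endosomal and lysosomal sorting, had 109 and 144 CPM against 174 and 124 CPM. Its groups overlap, with a log2 fold change of 0.24 (SE 0.22, edgeR adjusted p = 0.608). Chaf1a, a chromatin assembly gene on the other strand, overlaps Ubxn6 and had 214 and 226 CPM in control against 161 and 142 CPM. The sources used here do not say whether the counting used strand, so reads in the overlap may be shared.

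Ubxn4 and Faf2, for cofactors of degradation from the endoplasmic reticulum, showed small values. Ubxn4 (ENSMUSG00000026353, chromosome 1, 128243964 to 128279378, plus strand), also called erasin, had 86.1 and 78.1 CPM in control and 111 and 76.3 CPM in UBXN9 cells. Faf2 (ENSMUSG00000025873, chromosome 13, 54621784 to 54664063, plus strand), whose product UBXD8 sits in the endoplasmic reticulum and on lipid droplets, had 110 and 120 CPM against 116 and 101 CPM. Neither pair of groups separates. The log2 fold changes were 0.19 (SE 0.21, 95% interval -0.30 to 0.69) for Ubxn4 and -0.078 (SE 0.16, 95% interval -0.45 to 0.30) for Faf2, so a doubling of either lies outside its interval. Ubxn7 (ENSMUSG00000053774, chromosome 16, 32332257 to 32393747, plus strand), for the cofactor that links VCP to cullin ubiquitin ligases, had 42.9 and 37.8 CPM against 29.8 and 42.8 CPM, with a log2 fold change of -0.15 (SE 0.21, 95% interval -0.66 to 0.36). The edgeR adjusted p was 0.672 for Ubxn4, 0.849 for Faf2 and 0.76 for Ubxn7.

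In CPM, the difference between the UBXN9 libraries was larger than the group difference for Nsfl1c, Ubxn1, Ubxn4, Ubxn6, Faf2 and Ubxn7. Of these members, Ubxn7 was higher in UBXN9 2 and the others were higher in UBXN9 1. Vcp and Faf1 were higher in UBXN9 2, and Aspscr1 and Ubxn8 in UBXN9 1, by less than their group difference. Across all tested genes the difference of UBXN9 1 minus UBXN9 2 had a Spearman correlation of -0.423 with exon length, and that of control 1 minus control 2 had 0.325, both given as a description of libraries of 1 group. The part of transcript length in the members' values was not tested.

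As a set, 2 of the 10 members were called higher and 0 lower, against 5.06% and 2.38% of all genes tested. One of the 2 is the overexpressed gene. The groups did not overlap for 6 members, 5 of them higher, against 50.6% of all genes, of which 25% higher and 25.6% lower. The members' share in either direction is near that background, and their share higher lies above it. The 5 are Aspscr1 itself, Nsfl1c, and Vcp, Faf1 and Ubxn8 on chromosomes 4 and 8. The median log2 fold change was 0.29 over the members, 0.19 over the 7 outside chromosomes 4 and 8, and -0.0056 over all genes. Both member medians include Aspscr1, the overexpressed gene. Without it, the members outside those chromosomes ran from -0.30 (Ubxn1) to 0.35 (Nsfl1c), on both sides of 0.

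Levels were set side by side per length, as CPM per kb of annotated exon, for Vcp and all 13 UBX-domain genes. In control cells the order was led by Vcp (128 ± 6.2), followed by Ubxn1 (53.6 ± 4.18), Nsfl1c (45.1 ± 3.8), Ubxn6 (22.2 ± 4.3), Aspscr1 (21.7 ± 3.41), Ubxn4 (17.6 ± 1.21), Faf1 (14.4 ± 0.238) and Faf2 (14.1 ± 0.816), each as mean and SD of n = 2. Ubxn6 and Aspscr1, and Faf1 and Faf2, did not differ beyond their spread. Ubxn8 (3.57), Ubxn7 (3.19), Ubxn2a (2.22), Ubxn11 (0.737) and Ubxn2b (0.211) were lower than all 8 genes above them in every control library, and Ubxn10, the ciliary cofactor, had 1 count in all libraries together.

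With UBXN9, Aspscr1 moved from the fifth to the second place, at 80.9 ± 1.72 CPM per kb, above Nsfl1c (57.5 ± 12.9) and Ubxn1 (43.5 ± 8.65). Its RNA per kb was 15.7% and 18.3% of that of Vcp in control 1 and 2, and 54.5% and 44.6% in UBXN9 1 and 2. Both UBXN9 libraries have the higher share, and Aspscr1 was below Vcp in each library. The counts do not tell reads of the introduced UBXN9 from those of the native gene, and the length of the introduced sequence is not given. The values of Aspscr1 per kb in UBXN9 cells therefore rest on native lengths and may not compare directly with control. Lengths matter here: with the longest principal transcript of each gene in place of all exons, the mean share was 30.5% in control and 88.0% in UBXN9 cells, and Aspscr1 moved from the fourth to the second place. Of the summed RNA per kb of the 13 UBX-domain genes, Aspscr1 made up 10.3% and 11.5% in control 1 and 2, and 27.5% and 32.1% in UBXN9 1 and 2. Without Aspscr1, the other 12 summed to 137% and 140% of Vcp in the controls and to 144% and 94.2% in UBXN9 1 and UBXN9 2. These are ratios of RNA and say nothing of protein.

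**Figure D4:**
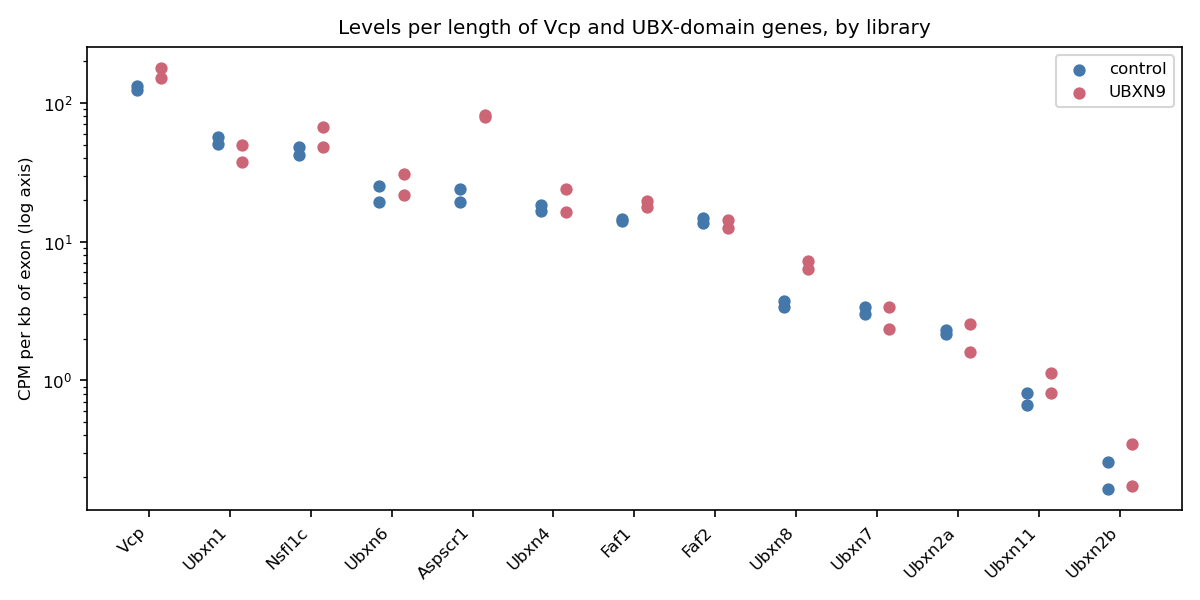
CPM per kb of annotated exon on a log axis for Vcp and 12 UBX-domain genes, ordered by the control mean, with 1 point per library (blue control, red UBXN9); Ubxn10, at 0 in 3 libraries, is left out. Aspscr1 is the gene whose red points stand far above its blue ones, at 82.1 and 79.7 against 19.3 and 24.1.

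Few genes of the wider VCP pathway passed the test. For scale, DESeq2 called 1249 of all 13230 genes tested. An unadjusted p under 0.05 was common among all genes: Nedd8, at an unadjusted edgeR p of 0.0476, ranked only 2791st by p. Of the 4 UBX-domain genes that are not members, 3 were tested and 0 passed with edgeR, DESeq2 or limma-voom, 0 of them with an unadjusted p under 0.05. Ubxn2a, for a cofactor related to p47, had 6.49 and 6.03 CPM against 7.22 and 4.52 CPM (log2 fold change -0.098). Ubxn2b had a log2 fold change of 0.30 and Ubxn11 of 0.39. Both lie on chromosome 4, whose median was 0.27. Of 22 VCP cofactors without a UBX domain 21 were tested and 0 passed edgeR's test, 3 of them with an unadjusted p under 0.05, and 2 passed with DESeq2. They had a median log2 fold change of 0.15 (0.041 outside chromosomes 4 and 8). Plaa, the ubiquitin-binding cofactor that works with VCP on damaged lysosomes, lies on chromosome 4 and had 22.5 and 17.6 CPM against 30.4 and 46.7 CPM (log2 fold change 0.94, edgeR adjusted p = 0.0755, and 0.0121 by DESeq2). Rhbdd1, a rhomboid protease of the endoplasmic reticulum, had 31.9 and 26.5 CPM against 49.2 and 44.3 CPM (0.68, edgeR adjusted p = 0.0706, and 0.0314 by DESeq2). The core adaptors Ufd1 and Nploc4, which hand ubiquitinated clients to VCP, had log2 fold changes of -0.038 and 0.042, and they were chosen for mention after their values were seen.

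The 6 AAA ATPases related to VCP had 0 called by edgeR, 3 with an unadjusted p under 0.05, 1 called by DESeq2, and a median of -0.037. Spata5, a ribosome maturation ATPase close to VCP, had 29.7 and 28.5 CPM against 52.1 and 44.1 CPM, just outside the threshold (log2 fold change 0.72, edgeR adjusted p = 0.0519, and 0.0159 by DESeq2). Nsf, the ATPase that recycles SNARE complexes, had 53.0 and 60.2 CPM against 44.2 and 38.1 CPM (-0.46, edgeR adjusted p = 0.176). Among 15 tested genes of degradation from the endoplasmic reticulum 0 passed with edgeR and 1 with DESeq2, and 2 had an unadjusted p under 0.05. The median was 0.21, or 0.04 outside chromosomes 4 and 8. Herpud1, a stress-induced scaffold of that pathway on chromosome 8, had 71.1 and 90.4 CPM against 146 and 124 CPM (0.74, edgeR adjusted p = 0.0597, and 0.00889 by DESeq2), and Ube2j1, a ubiquitin-conjugating enzyme gene on chromosome 4, had 47.3 and 48.0 CPM against 70.5 and 61.6 CPM (0.47).

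Usp25 was the gene called on the list of GLUT4 vesicle traffic, on which UBXN9 acts in fat and muscle. It encodes a ubiquitin protease whose muscle isoform is known to cleave TUG. Its levels were 7.44 and 4.63 CPM in the controls and 15.5 and 26.3 CPM in the UBXN9 libraries. Both UBXN9 libraries lie above both controls, but each group spreads widely. The log2 fold change was 1.79 (SE 0.35, 95% interval 0.97 to 2.61, a 3.46-fold rise, edgeR adjusted p = 0.0258). Without control 2 it was 1.495 (edgeR adjusted p = 0.0563), and without a composition factor 1.71 (edgeR adjusted p = 0.0791). The counts are per gene and do not tell isoforms apart. Sort1, which encodes the vesicle sorting receptor sortilin, had 79.3 and 69.5 CPM against 40.0 and 49.5 CPM (-0.73, edgeR adjusted p = 0.0577, and 0.0142 by DESeq2), and the Golgi gene Golga3 had a log2 fold change of 0.23. Slc2a4, the gene for GLUT4 itself, was counted 7 and 8 times in control cells and once in each UBXN9 library, too few to test. Of the 9 genes of the list 8 were tested, with a median of 0.086.

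Golgi, cullin and proteasome lists each had 0 called by edgeR, DESeq2 and limma-voom. Of 8 Golgi reassembly genes the median was 0.099. Uso1, a tethering factor gene on chromosome 5, was at 0.47 and Golga2, which encodes GM130, at -0.30. Of 10 cullin and neddylation genes it was 0.11, with Cul4b at 0.43 and Nedd8, the modifier itself, at -0.38. The 6 proteasome shuttles had a median of 0.053, with Ubqln2, for a ubiquilin that carries clients to the proteasome, at -0.35. All 32 constitutive proteasome genes were tested, and their median was 0.078, with Psma4 at 0.57 and Psmb2 at 0.43, the latter on chromosome 4. An unadjusted p under 0.05 was found for 1, 1, 1 and 2 genes of these 4 lists.

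**Figure D5:**
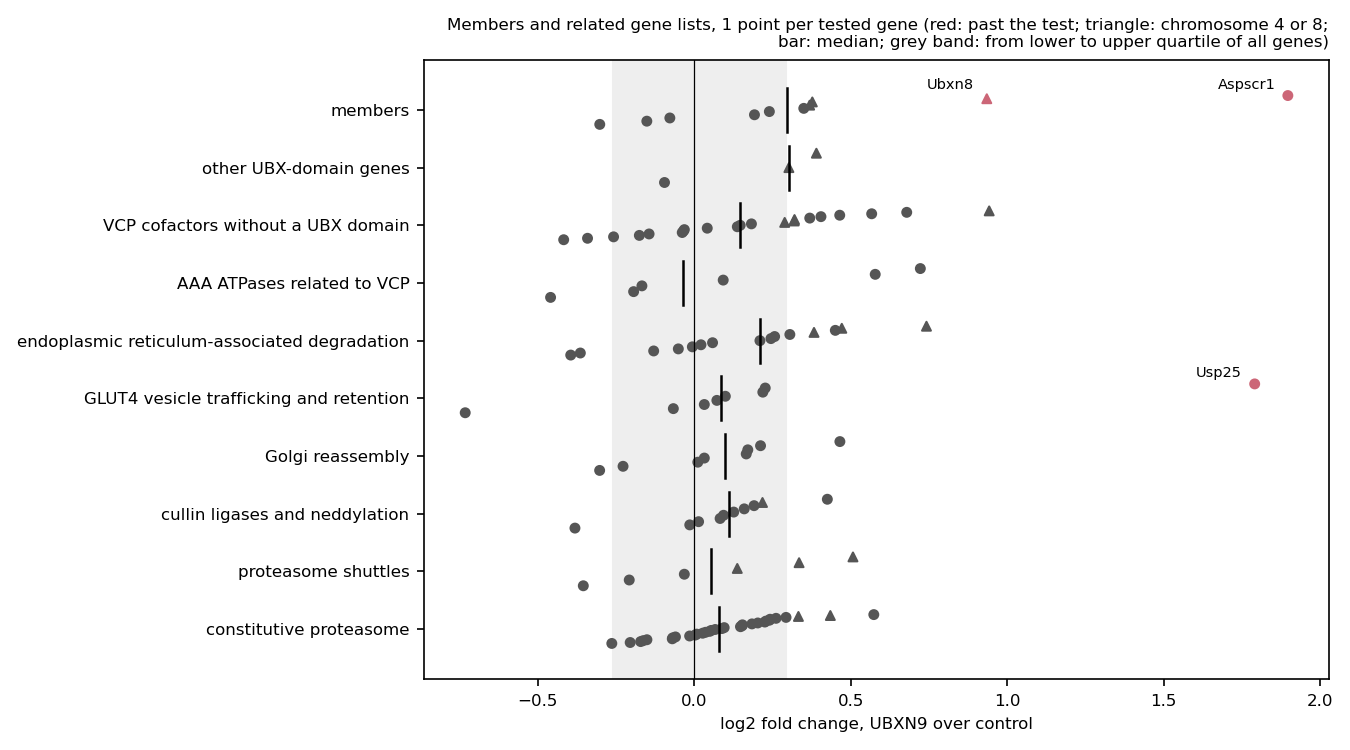
Log2 fold change of UBXN9 over control for each tested gene of the members and of 9 related lists, with the list median as a bar and the range from the lower to the upper quartile of all 13230 genes, -0.26 to 0.29, as a grey band. Red points, Aspscr1, Ubxn8 and Usp25, passed the test, and triangles mark chromosomes 4 and 8.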

How the data were processed

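RNA from 2 control and 2 UBXN9-overexpressing libraries was measured. The authors deposited estimated counts, unscaled, and the submitters' processing notes name HISAT2 2.1.0, HTSeq and GRCm38.p6. Annotation, settings and strand are not given in the sources used here. Counting whole reads gives no fractions, yet 9020 entries hold them, so the program that made the values is unclear; they were rounded to whole counts. Of 55728 entries, 241 lie outside the annotation, took 0.302% to 0.535% of the counts and stayed out of the test. Of 55487 annotated identifiers, 55227 matched GENCODE M21 (GRCm38).

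The comparison used edgeR 4.0.16 under R 4.3.3 (TMM factors, filterByExpr, quasi-likelihood F test, two-sided, Benjamini-Hochberg over 13230 genes). The SE is the log2 fold change over the root of F. The procedure was tested on simulated data. Alternatives were other scalings and filters, DESeq2 1.42.0, limma-voom (limma 3.58.1), a replicate block and leaving out each library. Chosen after seeing the data were a crossed block, leaving out chromosomes 4 and 8, adding the unannotated loci, and principal transcript lengths. Members and lists were chosen with earlier results of these data known. Named genes were all members, list genes past the test and, on lists with fewer than 2 such, up to 2 with the smallest p, the 5 nearest to Aspscr1 in profile, tested genes within 100 kb of it, genes overlapping a member, and Hras. Of the genes within 100 kb and the overlapping genes, a part is given in the text, and 1 list gene is not reported here; neighbours within 2 Mb were named after their values were seen. Figures were drawn with matplotlib 3.10.9.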

Additional observations from a re-analysis of the deposited data

How the results depend on the processing

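The direction and call of Aspscr1 held under all 14 alternatives, with a log2 fold change of 1.74 to 2.07 over the fits leaving out 1 library. The count of members called, 2, was 1 without a composition factor, 1 with a replicate block, where Ubxn8 had 0.93 (edgeR adjusted p = 0.103), and 1 to 3 over the fits leaving out 1 library. Leaving chromosomes 4 and 8 out of the fit left 7 members to test, and 1 was called. The number of all genes changed, 984, was 932 with the replicate block and 1827 without a filter on low counts, and it ran from 508 (without control 2) to 2782 (without UBXN9 2) with 1 library left out. Replicate numbers did not pair the libraries: the deviations of same-numbered libraries had a correlation of -0.373 across genes. With crossed numbers as the block, 4 members and 3137 genes were called. Signs of members near 0 turned with 1 library left out: Faf2 ran from -0.18 to 0.019, Ubxn4 from -0.10 to 0.44, Ubxn6 from -0.025 to 0.47 and Ubxn7 from -0.44 to 0.087, in each case with 1 or the other UBXN9 library left out. Ubxn2b, which is no member, ran from -0.30 to 0.705. The cause was not tested. These fits give the single remaining library the spread of the other group. Ubxn10, Slc2a4, Svip and Derl3, with at most 8 counts in any library, were not deep enough to test.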
